A study of Mus musculus with 6 samples.

Results

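The replication-dependent histone genes encode the core histones H2A, H2B, H3 and H4 and the linker histone H1, and their transcripts were measured here in bone marrow macrophages with and without allograft inflammatory factor-1 (AIF1). Members were the protein-coding mouse genes whose older symbols start with Hist1h, Hist2h, Hist3h or Hist4h in the GENCODE M21 annotation. The annotation held 67 such genes, of which 65 had an entry among the 47729 genes of the count tables. Hist1h2bm and Hist1h2bh had none under these identifiers and were not analysed here. The 65 members comprised 6 H1, 18 H2A, 16 H2B, 12 H3 and 13 H4 genes. By cluster, 52 belonged to Hist1, 10 to Hist2, 2 to Hist3 and 1 to Hist4. RNA came from C57BL/6J macrophages grown from the marrow of male WT and Aif1-/- mice that were 8 weeks old. All cells of both genotypes carried SV40 large T antigen, which drives continued division, and were kept in 120 ng/ml CSF-1 at passages 3 to 5. There were 3 libraries of each genotype, which the study's methods and legends give as coming from separate animals. Whether each animal's cells were immortalized separately is not stated in the sources used here.

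Histones package DNA into nucleosomes, each built on an octamer of core histones and sealed by H1. A dividing cell makes most of its histone protein in S phase, from intronless genes packed into clusters. Their mRNAs are the exception among animal mRNAs in that they normally end in a stem-loop rather than a poly(A) tail, so libraries made from total RNA after ribosomal RNA depletion, as here, capture them where poly(A) selection would not. Stem-loop binding protein (SLBP) holds that stem-loop through processing, translation and decay.

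The stem-loop was found in the annotated transcripts of 46 of the 67 members, against 61 of 55450 annotated genes (0.110%), 15 of them not members. The search took a stem of 6 base pairs closed by a loop of 4 bases in the forms known for histone mRNAs. A model that ends before the stem-loop gives no match, so a member without a match need not lack it. Hist1h2bl and Hist1h2bn, with models of 381 bases, gave none. The form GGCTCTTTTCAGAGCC was carried by 26 members, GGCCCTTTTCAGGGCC by 7 and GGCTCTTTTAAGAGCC by 6. The form with GGCCC stems was found in H4 genes only among these members. The sites below belong to the most abundant H1, H2A, H2B, H3 and H4 member with a match, to show how little they differ, read from GENCODE M21 transcripts on GRCm38, with the 16 stem-loop bases in capitals and 5 bases on each side in lower case.
Hist1h1c: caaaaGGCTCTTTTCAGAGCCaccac
Hist2h2ac: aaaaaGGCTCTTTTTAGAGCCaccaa
Hist1h2bb: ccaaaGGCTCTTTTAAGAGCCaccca
Hist1h3b: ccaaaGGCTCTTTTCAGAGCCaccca
Hist1h4h: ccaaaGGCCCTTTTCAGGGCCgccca
These stem-loops lie at chr13:23739512-23739527 (plus strand), chr3:96220418-96220433 (minus), chr13:23747203-23747218 (plus), chr13:23752820-23752835 (plus) and chr13:23531458-23531473 (plus).

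Upstream of the start sites the types differed in sequence. RefSeq promoters (GRCm38.p6, 250 bases before the start) were matched for 62 members. Each motif was searched on both strands. Where H2A and H2B genes stand head to head their windows can overlap, so the same site can count for both. CCAAT occurred in all 6 H1, all 18 H2A and all 16 H2B promoters, in 8 of 10 H3 and in 3 of 12 H4 promoters, against 34.5% of 27025 mouse promoters. TATAAA occurred in 46.8% of the members' promoters and 12.97% of all. The octamer ATTTGCAT occurred in 7 H2A and 6 H2B promoters and in no H1, H3 or H4 promoter, against 1.61% of all. AAACACA, known from H1 promoters, occurred in 5 of 6 H1 promoters against 6.22% of all. The promoters of 2 members are shown with those letters in capitals: Hist1h1b, the member with the lowest adjusted p, and Hist1h2bn, the most abundant H2B member, whose window spans most of the 296 bases between its start and that of its H2A neighbour Hist1h2ak.
Hist1h1b: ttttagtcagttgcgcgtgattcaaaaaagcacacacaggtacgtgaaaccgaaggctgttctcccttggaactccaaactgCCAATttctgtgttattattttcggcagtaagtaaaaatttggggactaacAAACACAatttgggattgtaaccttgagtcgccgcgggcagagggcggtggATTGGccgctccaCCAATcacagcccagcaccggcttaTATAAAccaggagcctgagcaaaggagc
Hist1h2bn: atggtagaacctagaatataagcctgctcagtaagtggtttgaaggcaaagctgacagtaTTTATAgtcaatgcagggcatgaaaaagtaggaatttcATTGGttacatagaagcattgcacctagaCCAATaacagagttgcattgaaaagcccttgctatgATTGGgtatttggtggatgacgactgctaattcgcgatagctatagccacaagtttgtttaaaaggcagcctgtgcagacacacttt
The Hist1h1b window is chr13:21780626-21780875 (minus strand) and the Hist1h2bn window is chr13:21753826-21754075 (plus strand).

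Library totals ranged from 17707986 to 29314253 counts in genes. Aif1, the deleted gene, had 221, 133 and 202 normalized counts in the WT libraries and 3.53, 5.33 and 1.32 in the Aif1-/- libraries, as labelled (log2 fold change -5.71 ± 0.38 SE, edgeR adjusted p = 2.84e-06). Normalized counts are raw counts scaled by TMM factors to the mean library. WT replicate 3 stood apart. Of its reads 25.5% fell in no gene, against 32.4% in WT replicate 1 and 33.6% to 35.7% in Aif1-/- libraries. WT replicate 2 lay at the other end, with 40.4%. WT replicates also differed more from one another than Aif1-/- replicates did. The chi-square per degree of freedom was 45.9 between WT replicates 2 and 3, 26.3 between 1 and 3, and 10.6 between 1 and 2. Between Aif1-/- pairs it was 2.43 to 3.36. Counts of called members by type are given with and without WT replicate 3, and so are the values of several single genes.

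Histone transcripts took a similar share of the counts in all 3 Aif1-/- libraries and a variable one in WT. Members held 0.651%, 0.588% and 0.995% of gene counts in WT replicates 1, 2 and 3, and 0.826%, 0.817% and 0.830% in the Aif1-/- replicates. The Aif1-/- libraries thus lay above WT replicates 1 and 2 and below WT replicate 3, and the genotypes overlapped. Means over the 3 libraries of each genotype were 0.744% ± 0.219 (SD) for WT and 0.824% ± 0.00655 for Aif1-/-, and the difference of 0.0797 percentage points became 0.205 without WT replicate 3. In bulk RNA, fewer cells in S phase and less histone RNA per cell cannot be told apart.

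Of the 65 members, 58 passed the filter on low counts, and 1 was called higher and 0 lower in Aif1-/- cells by edgeR's quasi-likelihood test at an adjusted p of 0.05. Among all 17406 genes tested, 18.6% were called, 8.04% higher and 10.5% lower, so the called share of the tested members, 1.72%, lay below the background. At an unadjusted p of 0.05, 3 members were higher and 2 lower, 5 of 58, where 29.2% of all genes passed. DESeq2 called 2 members higher and 0 lower, with 15.9% of its genes called, 7.17% higher and 8.77% lower. In 4 members the libraries of the genotypes did not overlap, 6.90% of those tested, against 35.7% of all genes tested. The median log2 fold change over the 58 was 0.16, and over all genes it was -0.0035.

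**Figure D1:**
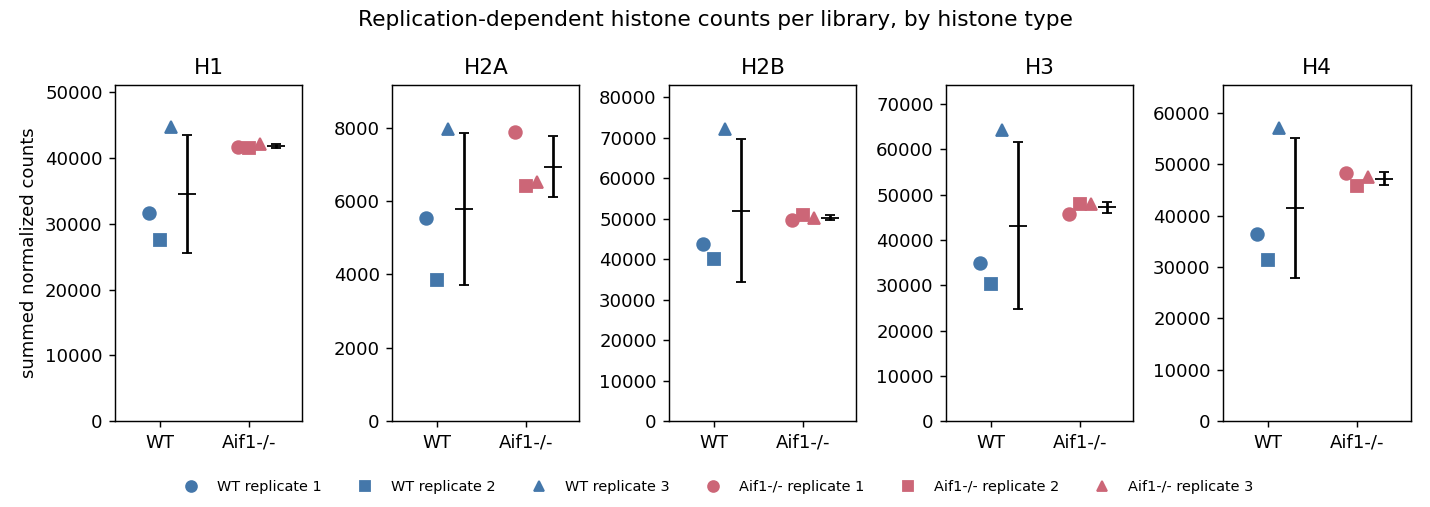
Summed normalized counts (vertical axis, from 0) of the H1, H2A, H2B, H3 and H4 members in each library, with the mean and SD (n = 3) in black. In every panel the 3 Aif1-/- libraries sit above WT replicates 1 and 2 and below WT replicate 3, which for H3 reached 64314 against at most 34848 in the other WT libraries.

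This pattern recurred gene by gene. In 54 of the 58 tested members every Aif1-/- library exceeded both WT replicate 1 and WT replicate 2, and in 45 of them every Aif1-/- library was also under WT replicate 3. WT replicate 3 was the highest of all 6 libraries in 46. Among the 53 members with a mean of at least 300 normalized counts, WT replicate 3 was at least 1.5 times the mean of the other WT libraries in 48 (90.6%), which held for 2.10% of the 9207 genes at that level. The median coefficient of variation of those members was 36.8% in WT and 3.02% in Aif1-/-, against 9.47% and 3.61% for genes at that level. Without WT replicate 3, edgeR called 51 of the 58 members higher (87.9%) and 1 lower, where 13.6% of all genes tested were called higher and 14% lower, and the median log2 fold change was 0.50. That fit has 2 WT libraries, and its median standard error was 0.08, against 0.20 with all 6. These standard errors pool the spread within both genotypes and are no measure of WT spread alone. With the share of reads in no gene as a covariate, 39 members were called higher and 2 lower, against 15.4% and 16.3% of all genes. With 3 WT libraries, a difference between genotypes in histone RNA and the departure of WT replicate 3 cannot be told apart.

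**Figure D2:**
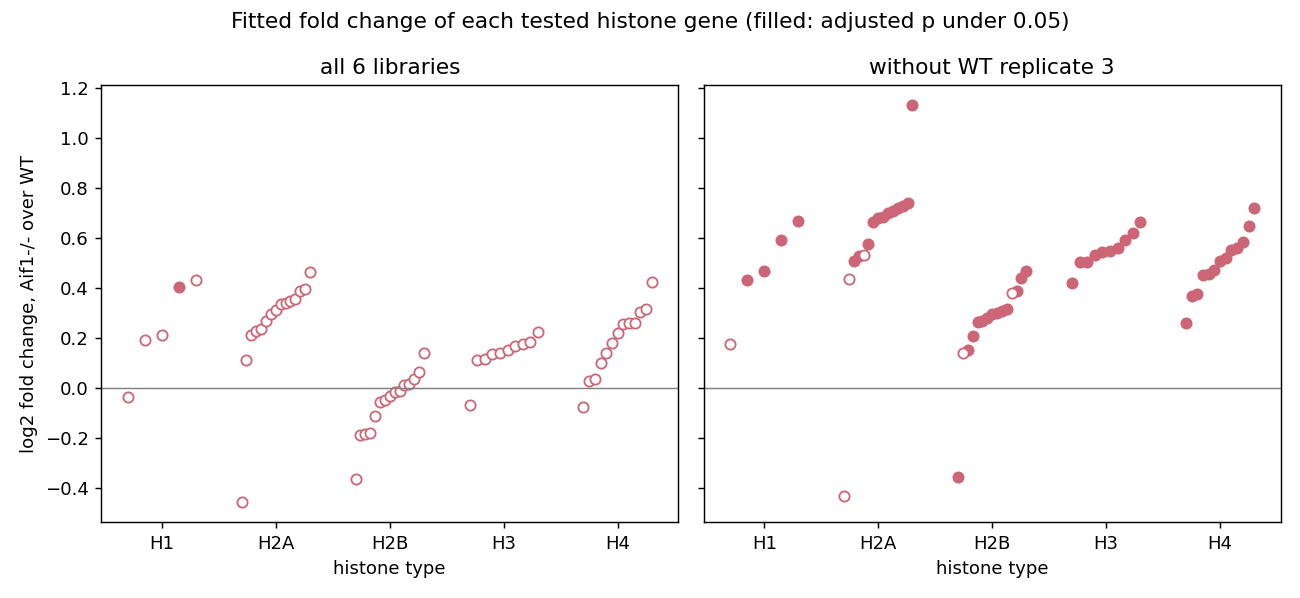
Fitted log2 fold change (Aif1-/- over WT, vertical axis) of each of the 58 tested members by histone type, with all 6 libraries (left) and without WT replicate 3 (right). Filled points passed an adjusted p of 0.05 in edgeR: 1 on the left, and 52 on the right, of which 1 lies below 0.

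The linker histones held the 1 called member. Hist1h1b, which encodes histone H1.5 (chr13:21779883-21780625, minus strand), had 5337, 4730 and 7019 normalized counts in WT and 7423, 7573 and 7632 in Aif1-/- libraries. All 3 Aif1-/- libraries exceeded all WT libraries, WT replicate 3 being the nearest. It rose by 0.41 ± 0.12 (SE) on the log2 scale, with an edgeR adjusted p of 0.0452. The call was lost without WT replicate 1 or 2 or any single Aif1-/- library (adjusted p of 0.0683 to 0.171) and kept without WT replicate 3 (1e-05). Hist1h1d, which encodes H1.3 and was chosen after its values were seen, had 6865, 5900 and 9687 normalized counts in WT and 9900, 10231 and 10136 in Aif1-/-, again without overlap (log2 fold change 0.43 ± 0.15 SE, edgeR adjusted p = 0.0737, and called by DESeq2).

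The other H1 genes overlapped between genotypes with all 6 libraries. Without WT replicate 3 edgeR called 4 of the 5 tested H1 genes higher, where 13.6% of all genes tested were. Hist1h1c, which encodes H1.2, had 9769, 8438 and 14712 normalized counts in WT and 12497, 12534 and 12596 in Aif1-/- (0.19 ± 0.17 SE, edgeR adjusted p = 0.511, and 0.47 with an adjusted p of 0.000121 without WT replicate 3). Hist1h1e, encoding H1.4, gave 0.21 ± 0.14 (SE, adjusted p = 0.378 in edgeR, and 0.43 with 0.000265 without WT replicate 3). Hist1h1a gave -0.04. Hist1h1t, the linker histone of male germ cells, had 0 to 5 raw counts in every library and was not tested. The sum over the 6 H1 genes was 34589 ± 8983 (SD, n = 3) normalized counts in WT and 41827 ± 269 in Aif1-/-, a log2 ratio of 0.27, or 0.50 without WT replicate 3.

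H2A and H2B, which pair as a dimer on the nucleosome, differed in the direction of most fold changes, though no member of either type passed the test. DESeq2 called 0 of either type. By edgeR 1 of each had an unadjusted p under 0.05, Hist3h2a and Hist2h2be, and both were lower in Aif1-/-. Of the 15 tested H2A genes 14 had a fold change above 0, with a median log2 value of 0.31. Of the 15 tested H2B genes 10 lay below 0, with a median of -0.03. Without WT replicate 3 the medians were 0.68 and 0.30, and 12 genes of each type were called higher, with 1 H2B gene called lower. Of all genes tested in that fit 13.6% were called higher and 14% lower. So the distance between the types remained when that library was left out, while the direction of most H2B genes did not. Over the 18 H2A and 16 H2B members, a median of 32.04% and 57.9% of read-length windows occurred in no other annotated transcript. Reads of a gene may thus be counted for its copies, so these gene counts are not separate observations. Among members with at least 80% such windows, the log2 ratio of summed counts was 0.12 for H2A and -0.0066 for H2B. The same limit holds for the H3 and H4 gene counts below. Hist1h2bn, the most abundant H2B gene per kilobase (chr13:21754123-21754503), had 4854, 5030 and 8515 normalized counts in WT and 5664, 5661 and 5697 in Aif1-/- (-0.11 ± 0.18 SE, edgeR adjusted p = 0.754). The Aif1-/- values lay between those of the WT libraries. Its neighbour Hist1h2ak, the most abundant H2A gene, had 607, 356 and 752 in WT and 862, 577 and 612 in Aif1-/- (0.26 ± 0.24 SE, edgeR adjusted p = 0.544). Hist1h2bb and Hist1h2bg, the next H2B genes in level, gave -0.05 ± 0.18 and 0.01 ± 0.17 (SE). Hist2h2ac and Hist1h2ao, the next H2A genes, gave 0.31 ± 0.17 and 0.24 ± 0.27 (SE), and none of these 4 was called.

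H2A and H2B genes stand head to head in the genome. The annotation held 12 H2A–H2B pairs on opposite strands with starts 176 to 306 bases apart. In 11 of them both partners were tested, and in all 11 the H2A partner had the higher fold change, by 0.14 to 0.68 on the log2 scale (median 0.37). These pairs share libraries and in part sequence, so the count is a description. The median log2 ratio of H2B to H2A counts over the 11 pairs was 3.05, 3.65 and 3.38 in WT and 2.72, 3.15 and 2.98 in Aif1-/- libraries, which overlapped. The remaining pair holds the germ cell genes. Hist1h2aa, a testis H2A, was at 0 in every library, while Hist1h2ba, a testis H2B, had 724, 598 and 1284 normalized counts in WT and 873, 835 and 866 in Aif1-/- (-0.02 ± 0.23 SE, edgeR adjusted p = 0.971). Of the 75-base windows of Hist1h2ba, 66.8% occurred in no other annotated transcript, so some of its reads may be those of other H2B genes.

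H3 and H4, which form the tetramer at the nucleosome's centre, had medians of 0.15 over 10 and 0.22 over 13 tested genes, with 9 and 12 genes above 0 and none called by edgeR or DESeq2 (0 H3 genes and 1 H4 gene had an unadjusted p under 0.05). For H3, Hist1h3b had 4845, 4460 and 8476 normalized counts in WT and 6463, 6875 and 6760 in Aif1-/- (0.18 ± 0.20 SE, edgeR adjusted p = 0.636). WT replicate 3 held more than any other library and the WT replicates 1 and 2 less, and the same order held for Hist1h3i (0.17 ± 0.22 SE) and Hist1h3c (0.11 ± 0.23 SE). H3 was also the type in which WT replicate 3 departed most, with a median of 1.92 times the mean of the other WT libraries, against 1.48 for H1. For H4, Hist1h4k had 3539, 3292 and 5469 normalized counts in WT and 4897, 4284 and 4755 in Aif1-/- (0.18 ± 0.16 SE, edgeR adjusted p = 0.539). Hist1h4h gave 0.22 ± 0.21 and Hist1h4f 0.26 ± 0.18 (SE). Without WT replicate 3 all 10 H3 and all 13 H4 genes were called higher, where 13.6% of all genes tested were.

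Outside the Hist1 cluster the pattern broke in 2 members, named after their values were seen. Hist2h2be (chr3:96221119-96223738), an H2B gene whose annotated model has 2620 bases, had 283, 260 and 270 normalized counts in WT and 215, 212 and 204 in Aif1-/-. The Aif1-/- libraries all lay below the WT libraries, and WT replicate 3 was 0.997 times the mean of the other WT libraries. The log2 fold change was -0.36 ± 0.12 (SE) and missed the threshold (edgeR adjusted p = 0.0556), but passed it without WT replicate 3 (0.0392). Hist3h2a (chr11:58954685-58956830), an H2A gene of 2146 bases that shares 708 exon bases with Trim17, had 261, 380 and 335 in WT and 254, 225 and 230 in Aif1-/-, again without overlap (-0.46 ± 0.15 SE, edgeR adjusted p = 0.0623). Its ratio of WT replicate 3 to the others was 1.05. In every other tested member that ratio was at least 1.39. No stem-loop match lay in the Hist2h2be model, and in Hist3h2a the model ran 1643 bases past it. The median log2 fold change was 0.14 over the 16 tested members whose model ran 300 bases or more past the stem-loop and 0.18 over the 24 whose model ended sooner, and 0.47 and 0.55 without WT replicate 3.

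The composition of the histone counts can be compared within a library, where depth and the histone total cancel. H2B made up 28.8%, 30.01% and 29.3% of the histone counts in WT and 25.7%, 26.4% and 25.8% in Aif1-/- libraries. The genotypes did not overlap, and WT replicate 3 lay between the other WT libraries. The means were 29.4% ± 0.63 and 25.9% ± 0.39 (SD, n = 3), a difference of -3.43 percentage points (Aif1-/- minus WT) and of -3.39 when Hist2h2be was left out. H1 made up 20.8%, 20.7% and 18.2% in WT and 21.6%, 21.6% and 21.7% in Aif1-/-, also without overlap. Over all members, H2A, H3 and H4 overlapped between genotypes. H2A ranged from 2.90% to 4.08%, H3 from 22.8% to 26.1% and H4 from 23.2% to 25.0%. Among the 19 members with at least 80% unique windows, H2B made up 8.36%, 8.37% and 8.90% of that group's counts in WT and 7.28%, 7.46% and 7.25% in Aif1-/-. Most H2B counts of that group came from Hist1h2be, which shares 496 exon bases with Hist1h1e. Hist1h2be had 3827, 3351 and 6048 normalized counts in WT and 4434, 4488 and 4428 in Aif1-/- (log2 fold change 0.01 ± 0.18 SE). The H2B share there thus rests largely on that gene, which was not called. H1 held 62.6% to 65.8% of that group's counts. H1 was again higher in each Aif1-/- library of that group. H4 turned direction there, with 25.2%, 25.7% and 26.2% in WT and 25.1%, 24.5% and 25.1% in Aif1-/- without overlap, a difference of -0.78 percentage points against 0.89 over all members. H2A also turned, with differences of -0.18 against 0.33, so that the shares of H4 and H2A depended on which members were summed. No test was run on these sums, whose members were chosen as a list, and 35.7% of single genes also failed to overlap.

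**Figure D3:**
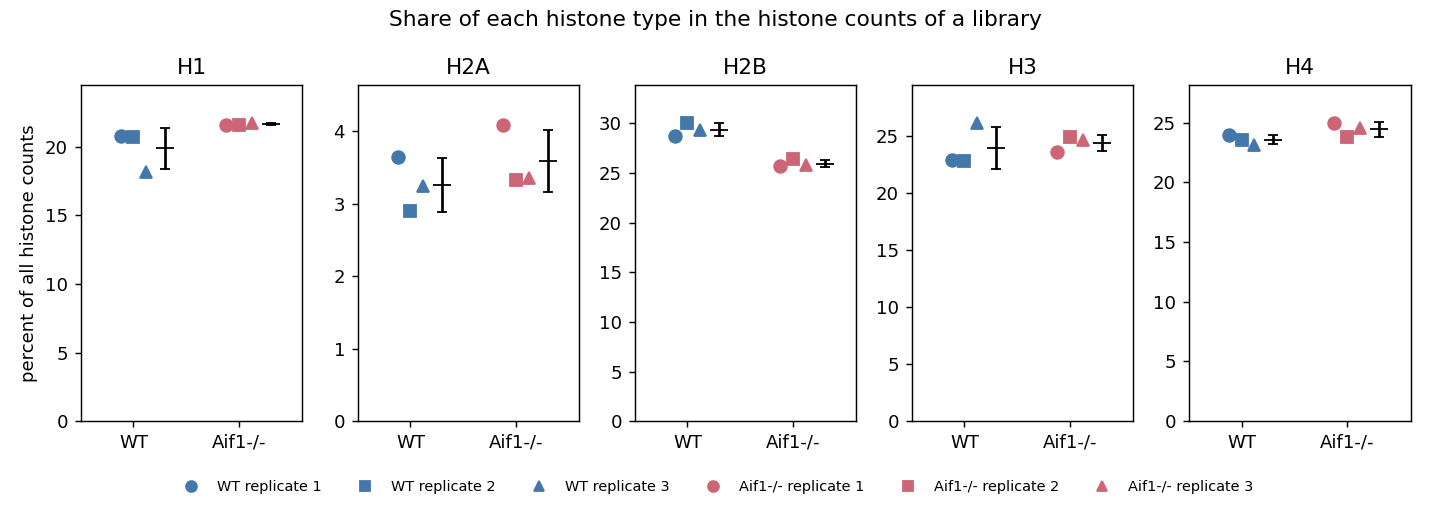
Percent of all histone counts of a library (vertical axis, from 0) that fell to each histone type, per library, with the mean and SD (n = 3) in black. H2B lay at 28.8% to 30.01% in WT and 25.7% to 26.4% in Aif1-/- libraries, and H1 at 18.2% to 20.8% and 21.6% to 21.7%.

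How many reads a histone gene could receive depended on its neighbours and its copies. HTSeq's default sets aside reads that touch exons of more than 1 gene. Whether a gene on the opposite strand counts as one depends on its strand setting, which the values do not settle, and the positions called countable here treat both strands alike. All 18 H2A members share exon bases with an annotated gene on the opposite strand, for most a model of 138 bases annotated as miRNA, against 3 of the other members. Of the positions a 75-base read could take, a median of 50.8% in H2A genes touched no other gene's exon, and 100% in each other type. Levels were also compared between types as CPM, counts scaled to an equal library size, per kilobase of exon. They had a median of 37.5 over the H2A genes with counts, 148 for H2B, 252 for H3, 225 for H4 and 163 for H1. This scale depends on the length of the annotated model. Hist1h1d, whose model runs 4884 bases past the stem-loop, had 50.4, and Hist1h1c had 321. Per 1000 countable positions H2A reached 96.7, with 170 for H2B and 341 for H4, so H2A stayed the lowest type on both scales. The 5 members covered whole by other genes' exons (Hist2h2aa1, Hist2h2aa2, Hist2h3b, Hist2h3c1 and Hist2h2bb) were at 0 in every library. For Hist2h3c1, covered whole on its own strand, this says nothing of transcription. For the others it says nothing only if the counting ignored strand, and Hist2h2aa2 and Hist2h3b are covered by opposite-strand genes alone. With Hist1h2aa these 5 members make up the 6 at 0. Unique windows ranged from 0% to 100% of a member's 75-base windows, with under 20% in 12 members, among them Hist1h3h (6.53%). Since the aligner reported no more than 1 site for a read, values of single copies of this kind are uncertain, and sums over a type are less so. The ranks of members by level within a type rest in part on such values.

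**Figure D4:**
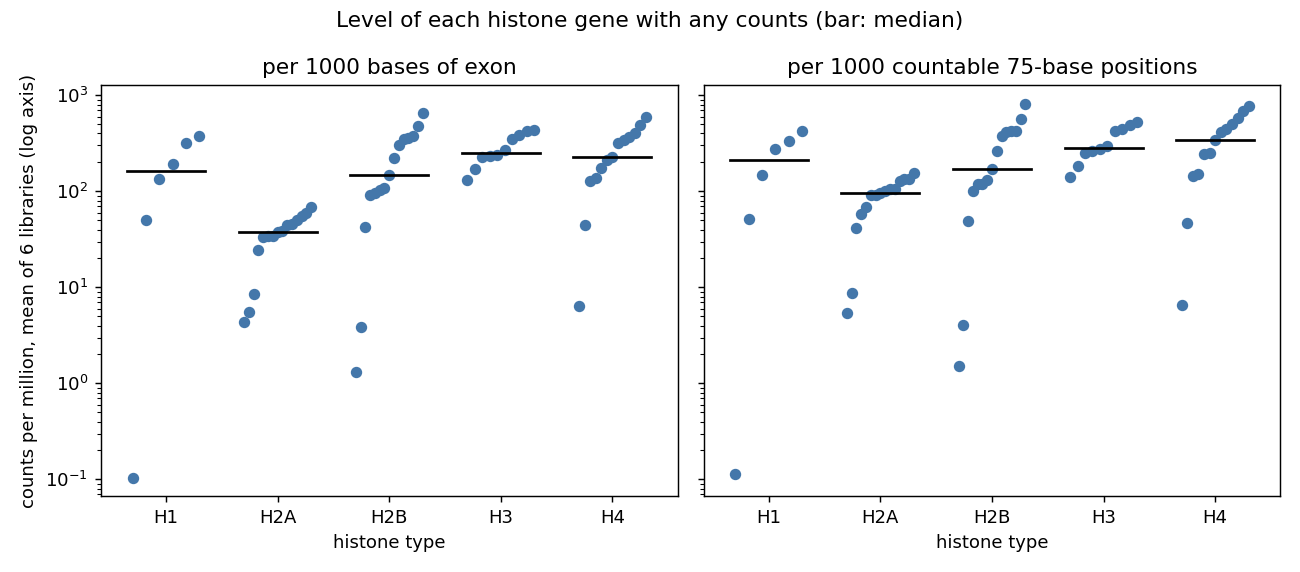
CPM (mean of 6 libraries, log axis) of each member with any counts, per 1000 bases of exon (left) and per 1000 positions at which a 75-base read touches no other gene's exon (right), with medians as bars. The H2A median moved from 37.5 to 96.7, the H2B median from 148 to 170.

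Genes that handle histone transcripts stood near the level of the other WT libraries in WT replicate 3. SLBP's gene Slbp had 2326, 1928 and 2054 normalized counts in WT and 2061, 2046 and 1918 in Aif1-/- (-0.07 ± 0.08 SE, edgeR adjusted p = 0.675). Of 17 genes for histone pre-mRNA processing and decay, 0 were called in either direction by edgeR or DESeq2 and 0 had an unadjusted p under 0.05, with a median log2 fold change of 0.11 and a median of 0.985 for the ratio of WT replicate 3 to the other WT libraries. That ratio was 1.76 over the tested histone members, 1.07 over 29 genes of DNA replication in S phase and 1.00 over all genes tested. Of the 29 replication genes, 2 rose and 3 fell (3 and 4 without WT replicate 3), and this share is near the 18.6% called among all genes tested, so it marks nothing about the list. Lig1, the ligase that joins Okazaki fragments, rose by 0.73 ± 0.07 (SE, edgeR adjusted p = 3.4e-05) and Ccna2, cyclin A2, by 0.30 ± 0.06. Pola2, Pole and Prim1, subunits of DNA polymerases and primase, fell by 0.48, 0.29 and 0.38 on the log2 scale. Of 12 genes for histone gene transcription only E2f1, an S phase transcription factor, was called (-0.32 ± 0.09 SE, edgeR adjusted p = 0.0304), and without WT replicate 3 Cdk2 was also called higher (0.26). Of 18 histone chaperone and acetylation genes 3 were called (1 higher and 3 lower without WT replicate 3), again near the 18.6% of all genes. Ipo4 rose by 0.44, and Chaf1b, a subunit of the chaperone CAF-1, and Daxx, a chaperone of H3.3, fell by 0.40 and 0.46 on the log2 scale.

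A list of 11 histone variant genes outside the members had a median ratio of 1.23. H1f0, the linker histone of resting cells, rose by 0.32 ± 0.10 (SE, edgeR adjusted p = 0.0479), Cenpa, the H3 of centromeres, rose by 0.23 ± 0.07 (0.0365), and H3f3b, which encodes H3.3, fell by 0.23 on the log2 scale (0.021). The other 8 were not called, and without WT replicate 3 H2afx (0.46, edgeR adjusted p = 7.24e-05) and H2afz (0.31, 0.0422) were called higher as well. With all 6 libraries 3 of 11 were called, against 18.6% of all genes tested. A list of non-coding RNAs, most of them without a poly(A) tail, had a median ratio of 1.27. Rn7sk, an RNA that restrains transcription elongation, had 317808, 270810 and 428934 normalized counts in WT and 348637, 363930 and 337086 in Aif1-/- (0.04 ± 0.14 SE, edgeR adjusted p = 0.882), with WT replicate 3 highest as in most histone genes. Without that library Rn7sk gave 0.25 (edgeR adjusted p = 0.0223) and Scarna2, a small Cajal body RNA, 0.44 (0.000467), and both were called higher. Rmrp and Rpph1 also had ratios of 1.55 and 1.52, but log2 fold changes of -0.41 and -0.30. Without WT replicate 3 these were -0.16 and -0.07, and neither gene was called in either fit. Of 11 tested genes of that list Malat1, a nuclear RNA, fell by 0.76 on the log2 scale (edgeR adjusted p = 0.0177). Malat1 had 198996, 286708 and 150404 normalized counts in WT. WT replicate 2 was thus the highest, and WT replicate 3 was 0.619 times the mean of the other WT libraries. The part of RNA composition in the histone values of WT replicate 3 was not tested.

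Macrophage markers were high in both genotypes and higher in Aif1-/-. Their 8 genes summed to 82506 to 99797 normalized counts in WT and 119492 to 121463 in Aif1-/-, with 6 called higher and 1 lower. Mertk, Lyz2 and Csf1r rose by 0.82, 0.75 and 0.48, and Cd14 fell by 0.40 on the log2 scale. The granulocyte, fibroblast, T cell, B cell and erythroid lists each summed to at most 15.98 normalized counts in any library, with Ly6g, Mpo, Dcn and Cd3e at 0. Of the 4 platelet and megakaryocyte genes, Pf4, which macrophages can also express, rose by 0.97, and Ppbp had 0 to 3.02 normalized counts in WT and 15.9 to 32.9 in Aif1-/-, while Itga2b averaged 12.7 and 9.12 and Gp9 was at or near 0. The list summed to 830 to 990 in WT and 1752 to 1825 in Aif1-/-, and its part in the histone values was not tested.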

How the data were processed

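RNA-seq of immortalized macrophages was taken as the deposited raw counts per gene of 6 libraries, 3 per genotype. Per the labels and the study's methods, the authors made KAPA stranded libraries from 200 ng of total RNA after ribosomal RNA depletion, removed adapters (Trim Galore 0.5), mapped to GRCm38 using TopHat2 2.0.13, with no more than 1 location reported for a read, and assigned reads to genes by HTSeq 0.6.1p1; the deposited counts are whole numbers, not normalized. Rows that name no gene (25.5% to 40.4% of reads in no gene, 4.55% to 7.15% ambiguous) were left out of library sizes and tests.

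Gene names and coordinates came from GENCODE M21 on GRCm38, which matched 47310 of 47729 identifiers. Counts were filtered with filterByExpr, scaled by TMM and tested with edgeR 4.0.16 (R 4.3.3), glmQLFit and glmQLFTest, genotype the only term, adjusted by the Benjamini-Hochberg method over 17406 genes at a threshold of 0.05. Standard errors were derived from the F statistic (absolute log2 fold change over its square root). The procedure was tested on simulated data. Alternatives were RLE factors, library totals alone, DESeq2 1.42.0, no filter, a filter of at least 50 counts in 3 libraries, a replicate block, the share of reads in no gene as a covariate and leaving out each library. Sums over types had no test. A 75-base window was unique where it occurred in no other GENCODE M21 transcript; no genome was used for this. A countable position is one where a 75-base read touches no exon of another gene. Promoters came from RefSeq (GRCm38.p6). Levels between genes were compared per kilobase or per 1000 countable positions.

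Members and gene lists were chosen with earlier results of these data known. Named members are the 3 of each type with the highest CPM per kilobase, up to 4 called members per direction and type, called members outside Hist1, the germ cell genes, and up to 3 called genes per direction and list with Slbp. Other genes named were chosen after their values were seen. Some single marker genes are not reported here.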

Additional observations from a re-analysis of the deposited data

How the results depend on the processing

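The number of members called higher was 1 with all 6 libraries and stayed at 1 with RLE factors or the stricter filter. It was 2 with library totals alone, 2 with DESeq2, 3 without a filter and 39 with the share of reads in no gene as a covariate, and leaving out each library gave 0 to 51, with 51 coming without WT replicate 3 and 0 without any other. Members called lower were 0, but 1 without a filter, 1 with the stricter filter, 2 with the covariate and 0 to 1 when each library was left out. All genes called numbered 3231, against 5517 with the covariate and 2040 to 4889 over the libraries left out. The cause was not tested. Replicate numbers did not pair the libraries: correlations of deviations between same-numbered libraries were 0.061, -0.074 and -0.085. With the replicate block 2 members were called higher, and the log2 fold changes of Hist1h2ba (0.056) and Hist1h2bb (0.0013) turned positive.

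Of 208 values of named members under the alternatives, 165 kept direction and side of the threshold, 22 passed it newly, 5 lost it and 16 turned direction, none of the latter in a gene called with all libraries. Hist1h2ba turned to 0.0027 with library totals alone and 0.16 with the covariate, and Hist1h2bb to 0.081 with the covariate. Leaving out each library gave -0.037 to 0.68 for Hist1h2ao, -0.23 to 0.39 for Hist1h2ba, -0.21 to 0.26 for Hist1h2bb, -0.11 to 0.30 for Hist1h2bg, -0.26 to 0.20 for Hist1h2bn, -0.099 to 0.54 for Hist1h3c and -0.037 to 0.56 for Hist1h3i, each highest without WT replicate 3.

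Sums over types have no test, and their SD includes WT replicate 3, so a shift within it shows no stability. The H2B and H3 sums turned sign when single WT libraries were left out. Leaving out each library gave log2 ratios of 0.13 to 0.50 for H1, 0.04 to 0.56 for H2A, -0.21 to 0.26 for H2B, -0.07 to 0.53 for H3 and 0.02 to 0.48 for H4. With at least 80% unique windows the H2A ratio was 0.12; no H3 member reached that share. Depth bears on few of the 58 tested members, of which 53 had a mean of at least 300 normalized counts.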

Other observations

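The clusters also hold annotated pseudogenes, which belong to no comparison above. Hist1h2aj had 342, 277 and 621 raw counts in WT and 529, 282 and 321 in Aif1-/- libraries, Hist1h2al had 251, 270 and 431 against 315, 204 and 211, and Hist3h2bb-ps had 103, 109 and 147 against 154, 92 and 98. Their log2 fold changes were 0.20 ± 0.24, -0.03 ± 0.17 and 0.28 ± 0.17 (SE), and edgeR called none (adjusted p of 0.348 to 0.935). In all 3 the highest raw count within WT was in replicate 3, which also had the most counts in genes of any library (29314253). These raw counts are not scaled for depth.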
